A study of Mus musculus with 10 samples.

Results

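The genes of the major histocompatibility complex (MHC) class I pathway and the immunoproteasome were examined in ribosome-bound RNA of mouse cerebral cortex. The set held 10 genes, H2-D1, H2-K1, B2m, Tap1, Tap2, Tapbp, Psmb8, Psmb9, Psmb10 and Nlrc5, found by their symbols among the 32531 genes of the count tables. All 10 were present in the tables, and all 10 passed the filter on low counts. The set was chosen by symbol, selected on the CPM (counts scaled to the same total in every library) of these same IP groups and input, so the values of the 10 genes are given as a description, with fold changes and standard errors but no p-value. Tests are given for other genes of the pathway.

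All libraries came from adult S100a10-EGFP/Rpl10a mice of the line ES691, in which regulatory sequences of S100a10 drive a ribosomal protein fused to EGFP. Tagged ribosomes were captured from cortical homogenate with antibodies to EGFP (translating ribosome affinity purification, TRAP), and the bound RNA was sequenced as the immunopurified fraction (IP). The IP libraries came from 3 groups in a study of short-access intravenous self-administration, with 3 libraries after saline self-administration, 3 after cocaine self-administration and 3 from yoked controls. A single input library held total RNA of the saline group. The labels name neurons as the cell type. What was given to yoked controls, and whether each replicate was a different animal or a pool, is not in the labels, so the spread between replicates may be technical. The library names put the saline IP, cocaine IP, yoked IP and input libraries on sequencing lanes 4, 5, 6 and 7, and the effects of lane and of group cannot be told apart.

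MHC class I molecules carry short peptides from inside the cell to its surface, where CD8 T cells and natural killer cells read them. The peptides are cut by the proteasome, whose 3 catalytic subunits can be replaced by the interferon-inducible subunits encoded by Psmb8, Psmb9 and Psmb10 to form the immunoproteasome. They are then pumped into the endoplasmic reticulum by the transporter made of Tap1 and Tap2, and loaded, with the help of tapasin (Tapbp), onto a heavy chain (such as those of H2-D1 and H2-K1) paired with beta-2 microglobulin (B2m). Nlrc5 is a transactivator that is recruited to class I promoters. Neurons are known for low class I expression at rest, and class I molecules in neurons have been linked to synapse development and plasticity.

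In the GRCm38 (mm10) assembly, 7 of the 10 genes lie on chromosome 17, within or beside the mouse MHC. Psmb9 (chr17:34181987-34187764), Tap1 (chr17:34187553-34197225), Psmb8 (chr17:34197721-34201454) and Tap2 (chr17:34203527-34216321) follow each other within 34.3 kb. Psmb9 and Tap1 point away from each other, and the annotated starts of their RefSeq promoters are 226 bases apart. H2-K1 (chr17:33996017-34000347), Tapbp (chr17:33915899-33929292) and H2-D1 (chr17:35262730-35267499) lie on the same chromosome. The other three lie elsewhere, B2m at chr2:122147686-122153083, Psmb10 at chr8:105935735-105938444 and Nlrc5 at chr8:94434356-94527272.

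Promoters of the heavy chains and of B2m are shown because these are the gene products that together form the class I molecule, and their upstream control elements are among the best studied of the pathway. RefSeq windows of 250 bases before the RefSeq start (GRCm38.p6) were found for 8 of the 10 genes, not for Tap2 and Nlrc5. The windows of H2-D1, Tapbp, Psmb8 and Psmb9 lie inside the gene spans given above, not upstream of them. All 8 windows were searched on both strands for an NF-kB consensus motif and for an X2-like motif spelled TGACGC. The search also covered an interferon-stimulated response element (ISRE)-like motif spelled GAANNGAAA and a gamma-activated site (GAS)-like motif spelled TTCNNNGAA. Matches are in capitals below, in order the NF-kB, ISRE-like and X2-like matches for the heavy chains and the NF-kB match for B2m. The ISRE-like matches and the B2m match read on the other strand, and the NF-kB matches of the heavy chains read on both. The H2-K1 stretch runs from 116 to 17 bases before the start (chr17:34000364-34000463, minus strand) and the B2m stretch from 131 to 32 bases before it (chr2:122147556-122147655, plus strand).
H2-K1: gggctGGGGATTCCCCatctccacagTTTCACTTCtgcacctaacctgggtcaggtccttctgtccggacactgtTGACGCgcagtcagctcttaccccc
B2m: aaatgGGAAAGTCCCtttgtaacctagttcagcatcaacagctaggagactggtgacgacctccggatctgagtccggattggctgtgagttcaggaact

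The heavy chain genes shared the first part of this stretch nearly base for base. Over the NF-kB and ISRE-like matches the H2-K1 (chr17:34000429-34000458, minus strand) and H2-D1 (chr17:35262923-35262952, plus strand) sequences were identical at 29 of 30 positions. Over the whole 100 bases aligned they were identical at 89 positions.
H2-K1: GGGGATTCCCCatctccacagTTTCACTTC
H2-D1: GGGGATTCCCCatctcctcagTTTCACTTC

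The ISRE-like motif, as spelled, was in 6.31% of all 32851 RefSeq windows and in 2 of the 8 member windows, those of H2-D1 and H2-K1. The B2m window holds gaaactgaaa, beginning just before the printed stretch. It reads GAAA, 2 other bases and GAAA again, which the spelling searched does not cover. The counts above therefore do not include sites of this spelling, and B2m is not shown to lack an ISRE. The window of Psmb6, a constitutive proteasome subunit, also held an ISRE-like match, and that of Psmb5 held none. The NF-kB consensus was in 3.90% of all windows and in 3 of the 8, H2-D1, H2-K1 and B2m. The X2-like motif was in 6.12% of windows and in those of H2-D1 and H2-K1. The windows of B2m, Tap1 and Psmb9 hold tgacga, which differs from the spelling searched at the last base and was not counted. A CCAAT box, not marked above, was also searched for, and was in 33.8% of windows and in 6 of the 8. The Tap1 and Psmb9 windows share the 225 bases between their starts. Their CCAAT matches are the same site read from opposite strands, so the count of 6 includes that site in both windows. The GAS-like motif was in 7.02% of windows and, among the 8, in that of Psmb8 alone. It lay from 97 to 89 bases before the RefSeq start, inside the Psmb8 gene span given above. A match describes letters in a window and shows no binding.

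Gene counts per library were 38653752 to 50898401 for IP and 69974908 for input. Levels are CPM scaled by library size and composition, with 3 counts corresponding to between 0.0448 and 0.0778 CPM. Multi-mapped reads, which were not counted, made up 38.3% to 46.8% of IP reads and 38.6% of input reads. The H2 genes have near-identical copies, so their counts are uncertain. Exons of other annotated genes overlap 29.0% of the exon bases of Tapbp, 18.5% of Tap2 and 14.7% of Psmb8, and Tap1 and Psmb9 overlap each other at their ends. The strand setting of the counting is not given in the sources used here, so reads of these overlaps cannot be told apart.

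In 9 of the 10 genes every one of the 9 IP libraries was above the input, a pattern shown by 21.5% of the 18437 genes tested. In 8 of the 10 every IP library was at least 2-fold above it (8.15% of all genes). The exceptions to the first count were the libraries of Psmb10, and to the second those of Psmb10 and Nlrc5. All 10 log2 fold changes of saline IP over input were above 0 (51.5% of all genes), with a median of 2.01 against 0.02 for all genes. Nothing is read from these counts, since the same values were known when the genes were chosen. The single input library has no replicate, and its spread is assumed to be that of the IP libraries.

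The classical heavy chain genes H2-D1 and H2-K1 encode the polymorphic chain that holds the peptide. H2-K1 was at 86.3, 34.8 and 41.7 CPM in saline IP replicates 1, 2 and 3, and at 12.6 CPM in the input. H2-D1 was at 77.6, 50.2 and 48.4 CPM in the same libraries and at 17.9 CPM in the input. For both genes saline replicate 1 was the highest of all 10 libraries and the input the lowest. The log2 fold change of saline IP over input was 2.10 ± 0.48 (SE) for H2-K1, or 4.30-fold, and 1.71 ± 0.35 for H2-D1, or 3.28-fold. Without saline replicate 1 these were 1.60 and 1.46.

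B2m, the invariant light chain that all class I heavy chains need to reach the cell surface, had the highest level of the set, in CPM and per kb of transcript. It was at 363, 249 and 359 CPM in the saline IP libraries and at 47.8 CPM in the input. In the cocaine IP libraries it was at 224, 202 and 376 CPM, and in the yoked IP libraries at 240.5, 229.9 and 369.9 CPM. In each IP group replicate 3 was at 359 CPM or more, and the lowest IP library was still above the input. The log2 fold change over input was 2.76 ± 0.43, or 6.76-fold.

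The transporter genes Tap1 and Tap2 had lower levels per kb than the genes of the molecules they supply, as given further on. Tap1 was at 2.44, 1.36 and 1.83 CPM in the saline IP libraries and at 0.493 CPM (33 counts) in the input, a log2 fold change of 1.92 ± 0.66. Tap2 was at 2.82, 1.56 and 1.47 CPM, against 0.149 CPM in the input. The Tap2 fold change, 3.69 ± 0.71 on the log2 scale, was the highest of the set and rests on 10 counts in the input. Tapbp encodes tapasin, which bridges the transporter and the empty class I molecule. It was at 32.2, 24.5 and 33.4 CPM in the saline IP libraries and at 9.65 CPM in the input, a log2 fold change of 1.64 ± 0.33.

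The immunoproteasome genes did not behave alike against the input. Psmb8, which replaces Psmb5, was at 19.8, 13.6 and 11.7 CPM in the saline IP libraries and at 1.82 CPM in the input. Psmb9, which replaces Psmb6, was at 50.1, 25.9 and 20.6 CPM, against 3.67 CPM in the input. Every IP library was well above the input for both. Their log2 fold changes were 3.04 ± 0.36 (8.25-fold) and 3.13 ± 0.47 (8.77-fold). Psmb10, which replaces Psmb7, was at 52.4, 56.5 and 53.4 CPM in the saline IP libraries and at 47.2 CPM in the input, which lay among the 9 IP libraries (38.5 to 56.5 CPM). Its log2 fold change was 0.20 ± 0.22.

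Nlrc5, the class I transactivator, was near the limit of these counts. It was at 0.343, 0.181 and 0.166 CPM in the saline IP libraries (17, 8 and 7 counts) and at 0.105 CPM in the input (7 counts). The log2 fold change over input was 1.12 ± 1.14, smaller than its standard error.

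**Figure D1:**
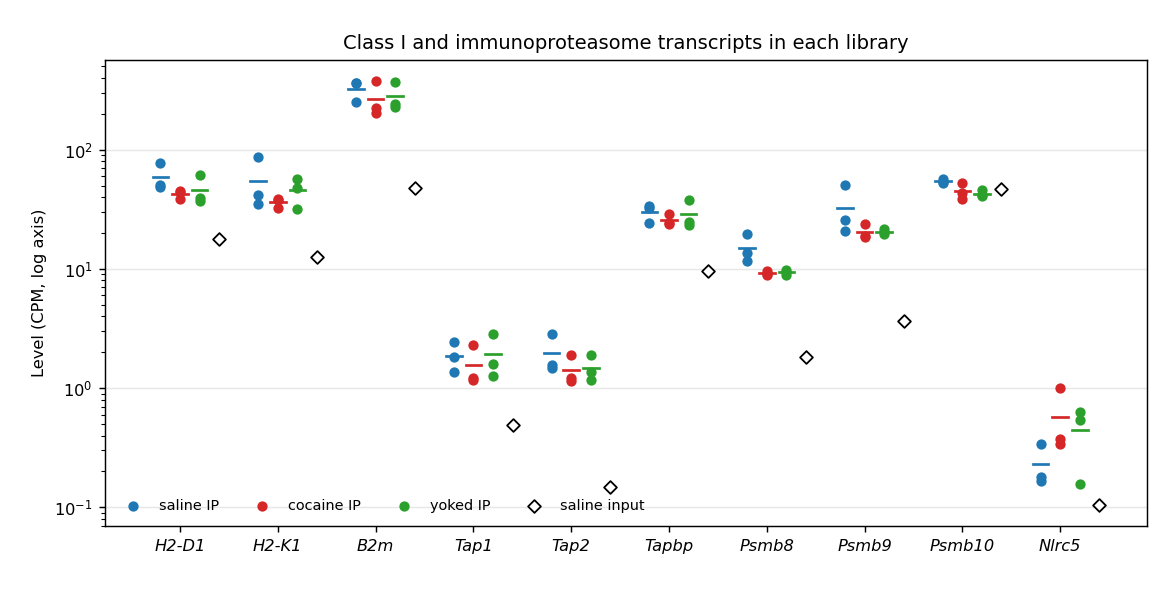
CPM (log axis) of each of the 10 genes in the saline, cocaine and yoked IP libraries (filled points, 1 per library, with a bar at the group mean) and in the single saline input (open diamond). The input lies below all 9 IP points for every gene except Psmb10, where it lies among them.

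To compare levels between genes, CPM was divided by the length in kb of the principal GENCODE transcript. In the saline IP libraries B2m came first, at 376 ± 75.3 CPM per kb (SD, n = 3). Psmb10 (41.3 ± 1.61), H2-K1 (33.5 ± 17.3), H2-D1 (27.9 ± 7.79) and Psmb9 (23.8 ± 11.6 CPM per kb) followed, and each overlapped its neighbour in this order. Tapbp (10.4 ± 1.67) and Psmb8 (9.24 ± 2.58 CPM per kb) came next and also overlapped each other. Tap1 (0.635 ± 0.184) and Tap2 (0.567 ± 0.219 CPM per kb) overlapped too, and Nlrc5 was lowest at 0.030 ± 0.013 CPM per kb. In the input the order began with B2m (55.6) and Psmb10 (36.0), with H2-D1 next at 8.53 CPM per kb.

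The constitutive catalytic subunits that these immunoproteasome subunits replace showed no called difference from the input. By edgeR with adjustment over all genes, the log2 fold changes were 0.03 ± 0.28 for Psmb5 (adjusted p = 0.968), 0.44 ± 0.32 for Psmb6 (0.448) and 0.36 ± 0.31 for Psmb7 (0.531). Per kb of transcript, Psmb8 stood at 26.0%, 13.1% and 13.6% of Psmb5 in the saline IP libraries and at 2.10% in the input. Psmb9 stood at 16.2%, 6.61% and 8.17% of Psmb6 in those libraries and at 1.56% in the input. Psmb10 stood at 22.6%, 19.9% and 29.4% of Psmb7, and at 26.1% in the input, inside the range of the IP libraries. The geometric mean over saline IP libraries was thus 7.95-fold above the input for Psmb8 to Psmb5 and 6.12-fold for Psmb9 to Psmb6, but 0.906-fold for Psmb10 to Psmb7. The percentages depend on the transcript taken for each gene, and the ratio to the input does not.

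**Figure D2:**
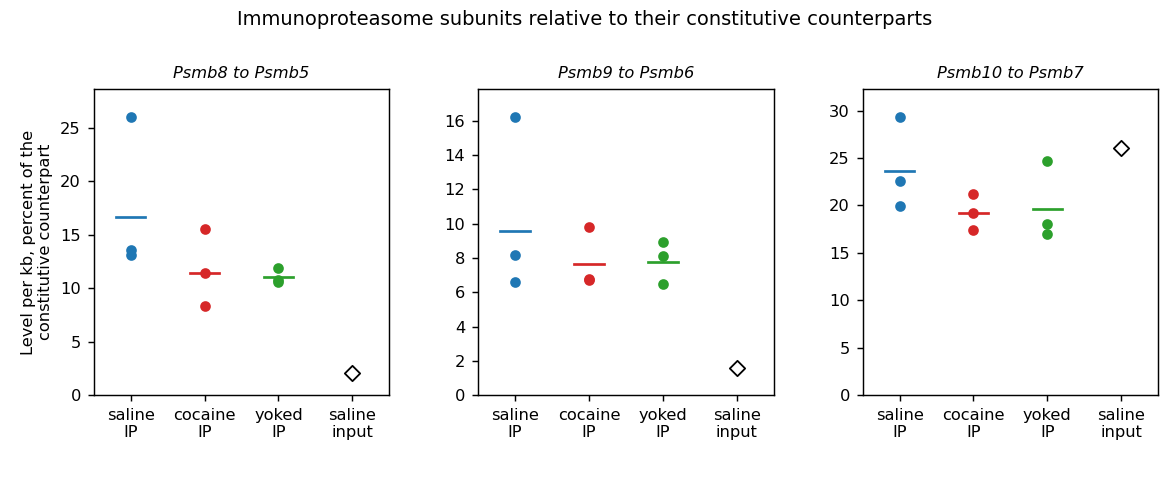
Level per kb of Psmb8, Psmb9 and Psmb10 as a percentage of the constitutive subunit each replaces (linear axis from 0), for every library, with bars at the geometric mean of each IP group and an open diamond for the input. The input lies below all IP libraries for the first and second pair and inside the IP range for Psmb10 and Psmb7.

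Other genes of the pathway were tested against the input, from lists chosen for their roles. These lists, like the marker lists below, were drawn up with earlier results of these data known. That limits what their adjusted p-values show. Of 104 tested, 9 were higher and 1 was lower at an adjusted p under 0.05 by edgeR's quasi-likelihood test with Benjamini-Hochberg adjustment, beside 7.07% of all genes higher and 4.26% lower. The non-classical and other heavy chains and relatives had 6 of 16 tested genes higher and 0 lower, with a median log2 fold change of 1.77. The list has 30 symbols, and 7 of them were at 0 in every library. The loading and trimming factors had 1 of 14 higher (median -0.05), the other 20S proteasome subunits 0 of 11, the 19S subunits 0 of 17 (median 0.09) and the proteasome activators 1 of 6. The interferon receptors and their signalling genes had 1 of 17 higher, and the factors that act on class I promoters 0 of 11. Receptors that read class I had 0 of 8 higher and 1 lower.

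Among heavy chain relatives the highest fold was that of H2-Q1, a non-classical class I gene, at 35.6, 24.4 and 39.3 CPM in the saline IP libraries and 0.418 CPM (28 counts) in the input. Its log2 fold change was 6.30 ± 1.003 (edgeR adjusted p = 0.00103). Fcgrt, which encodes the neonatal Fc receptor and binds antibody and albumin, not peptide, was at 36.6 ± 11.9 CPM (SD, n = 3) against 2.66 CPM and rose by 3.78 ± 0.45 (edgeR adjusted p = 0.000103). Hfe, a regulator of iron uptake that also needs B2m, rose by 3.40 ± 0.60 (edgeR adjusted p = 0.00235). H2-T23, the mouse Qa-1 molecule read by natural killer cells, rose by 2.24 ± 0.41 (edgeR adjusted p = 0.00282).

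In the other lists, Tapbpl, a tapasin-related peptide editor, rose by 1.38 ± 0.33 (edgeR adjusted p = 0.0146). Psme2, a subunit of the interferon-inducible PA28 proteasome activator, rose by 1.14 ± 0.31 (edgeR adjusted p = 0.0287), and its adjusted p was 0.0721 when saline replicate 1 was left out and 0.0622 when saline replicate 2 was, both above 0.05. Ifnar2, a chain of the type I interferon receptor, rose by 1.43 ± 0.27 (edgeR adjusted p = 0.00389). Cd160, a receptor of lymphocytes, fell by 1.48 ± 0.38 (edgeR adjusted p = 0.0227). Irf1, an interferon-induced factor, had a log2 fold change of 1.33 ± 0.45 (edgeR adjusted p = 0.0772).

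**Figure D3:**
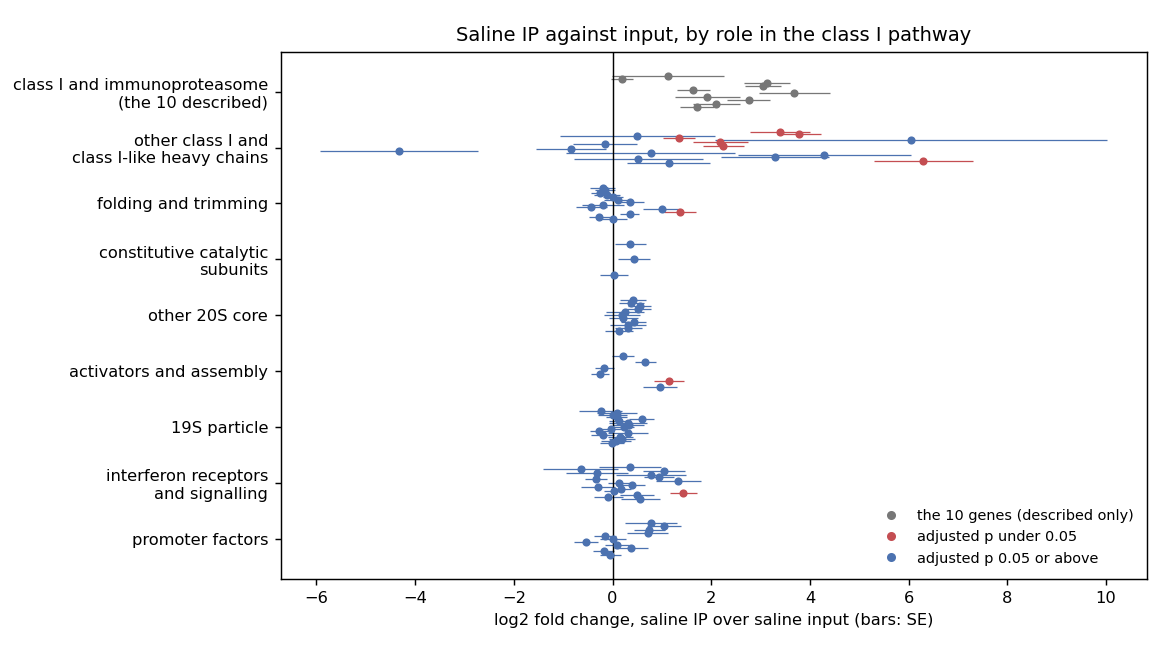
Log2 fold change of saline IP over input with its SE for the 10 genes (grey, described only) and for genes of 8 other pathway lists (red where the edgeR adjusted p was under 0.05, blue otherwise). The other class I heavy chains spread widely on both sides of 0 around a median of 1.77, with wide errors for low genes, while the 20S and 19S proteasome subunits sit near 0.

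The labelled cell type was checked against marker genes, and other cell types were looked for in the same libraries. Excitatory neuron markers had 0 of 12 genes called in either direction by edgeR (median log2 fold change -0.12), with summed levels of 3640.3 to 5017.1 CPM in the saline IP libraries and 4692.1 CPM in the input. Meningeal fibroblast markers had 14 of 14 called higher (median 4.79), with sums of 2011.6 to 2844.3 CPM in saline IP and 114 CPM in the input. Mural cell markers had 6 of 12 higher (289 to 355 CPM against 43.4 CPM) and endothelial markers 4 of 16 (109 to 148 CPM against 46.4 CPM). None of either list was called lower. Yet 5 of the 12 mural markers had log2 fold changes below 0 (lowest -1.48), as did 2 of the 16 endothelial markers (lowest -1.86). The sums therefore do not stand for every marker of these lists. Markers of cells that carry MHC class II had 4 of 8 higher (78.4 to 178 CPM against 10.8 CPM) and lymphocyte markers 3 of the 10 tested of 14 (11.9 to 12.4 CPM against 8.01 CPM). Most of the lymphocyte sum in the input was Cd4, with 473 counts there and 37 to 149 in saline IP, whereas Cd3e had 6 counts in the input and 76 to 162 in saline IP and Cd79a 13 and 212 to 259. Microglia and macrophage markers had 1 of 16 higher and 2 lower (42.0 to 53.3 CPM against 69.4 CPM). Oligodendrocyte markers had 0 of 10 higher and 4 lower (278 to 624 CPM against 1481.2 CPM), and astrocyte markers 2 of 10 higher and 3 lower (1042 to 1279 CPM against 2395.3 CPM). No marker of any of these lists was at 0 in all libraries. Most of these cell types are known to express class I genes, and the part of these cells in the levels above was not tested. The IP holds RNA of captured ribosomes and the input holds total RNA. A marker difference between them therefore does not show how many cells of a type there were. Number of cells and RNA per cell cannot be told apart either.

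Between the self-administration groups no gene passed the adjusted p by edgeR. For cocaine against saline 0% of 16642 genes were called. At an unadjusted p under 0.05, 3.18% of all genes were counted, and DESeq2 counted 717 genes unadjusted and called 0. Of the 10 log2 fold changes 9 were below 0 (53.1% of all genes), with a median of -0.38 against -0.02 for all genes. In 3 of the 10, H2-D1, Psmb8 and Psmb10, every cocaine library was below every saline library (4.32% of all genes). Nothing is read from these counts, since IP group levels were known when the genes were chosen. In the same comparison 0 marker genes were called, and 9 of 10 oligodendrocyte markers (median 0.58) and 9 of 10 astrocyte markers (median 0.40) were above 0, while 13 of 14 meningeal fibroblast markers were below 0 (median -0.23). Their part in the fold changes of the 10 genes was not tested.

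For yoked against saline, 0% of genes were called by edgeR. At an unadjusted p under 0.05 the share was 2.39% of all genes, and DESeq2 counted 565 genes unadjusted and called 0. Of the 10 fold changes 8 were below 0 (51.9% of all genes), with a median of -0.30 against -0.01 for all genes. Psmb8 and Psmb10 had every yoked library below every saline library (3.05% of all genes). Oligodendrocyte, astrocyte and meningeal markers had medians of -0.13, -0.05 and -0.06 in this comparison. Both comparisons use the same saline libraries. For cocaine against yoked, 0% of genes were called and 0.955% of all genes had an unadjusted p under 0.05, with 264 genes counted unadjusted and 0 called by DESeq2. There 8 of the 10 were below 0 (52.4% of all genes), the median was -0.06, and in 0 of the 10 was every cocaine library below every yoked library (2.25% of all genes).

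Psmb8 and Psmb9 had the most negative fold changes in both comparisons with saline. Psmb8 was at 9.12, 8.82 and 9.64 CPM in the cocaine IP libraries and at 9.85, 9.42 and 8.83 CPM in the yoked IP libraries, against 11.7 to 19.8 CPM in saline. These 6 libraries lay within a narrow band, and all 3 saline libraries lay above it. The log2 fold change was -0.72 ± 0.20 for cocaine and -0.69 ± 0.20 for yoked. Psmb9 was at 18.7, 23.8 and 18.8 CPM after cocaine and at 19.6, 21.6 and 20.3 CPM in the yoked group, against 20.6 to 50.1 CPM in saline. Here the groups overlapped, and saline replicate 1 stood far above the rest. Its log2 fold changes were -0.67 ± 0.27 and -0.66 ± 0.27.

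Psmb10 was at 43.1, 52.3 and 38.5 CPM after cocaine and at 45.7, 41.5 and 41.2 CPM in the yoked group, against 52.4 to 56.5 CPM in saline. The lowest saline library was only just above the highest cocaine library. The log2 fold changes were -0.29 ± 0.15 for cocaine and -0.35 ± 0.15 for yoked. Relative to their constitutive counterparts per kb, the geometric means were 16.7% in saline, 11.4% in cocaine and 11.1% in yoked IP for Psmb8 to Psmb5, with overlap between saline and cocaine libraries (13.1% to 26.0% against 8.29% to 15.6%). They were 9.57%, 7.64% and 7.77% for Psmb9 to Psmb6, and 23.6%, 19.2% and 19.6% for Psmb10 to Psmb7, with overlap in both pairs.

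H2-K1 was at 38.7, 32.3 and 37.6 CPM after cocaine and at 56.6, 48.0 and 31.8 CPM in the yoked group. H2-D1 was at 43.9, 38.5 and 44.8 CPM after cocaine and at 60.7, 39.6 and 37.1 CPM in the yoked group. The log2 fold changes of cocaine over saline were -0.60 ± 0.30 for H2-K1 and -0.48 ± 0.22 for H2-D1, and those of yoked over saline were -0.26 ± 0.30 and -0.37 ± 0.22. B2m (-0.29 ± 0.25 and -0.21 ± 0.25), Tap2 (-0.47 ± 0.38 and -0.42 ± 0.38), Tap1 (-0.27 ± 0.41 and 0.02 ± 0.41) and Tapbp (-0.24 ± 0.21 and -0.07 ± 0.21) had groups that overlapped in both comparisons.

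Nlrc5 alone had a positive fold change for cocaine, at 1.28 ± 0.69 on the log2 scale, and it had 0.94 ± 0.69 for yoked. Its counts were 17, 8 and 7 in saline, 15, 17 and 49 in cocaine and 6, 33 and 24 in yoked IP libraries. The groups overlapped at levels of 0.156 to 1.001 CPM.

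Much of the difference from saline came with a single library. Saline replicate 1 was the highest of the 9 IP libraries for H2-D1, H2-K1, Tap2, Psmb8 and Psmb9. Without it the median log2 fold change of the 10 was -0.18 for cocaine and -0.08 for yoked. H2-K1 then stood at -0.08 and 0.25, Psmb9 at -0.19 and -0.19 and Tap2 at -0.09 and -0.05. Psmb8 stood at -0.47 and -0.44 and Psmb10 at -0.30 and -0.36 without that library.

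**Figure D4:**
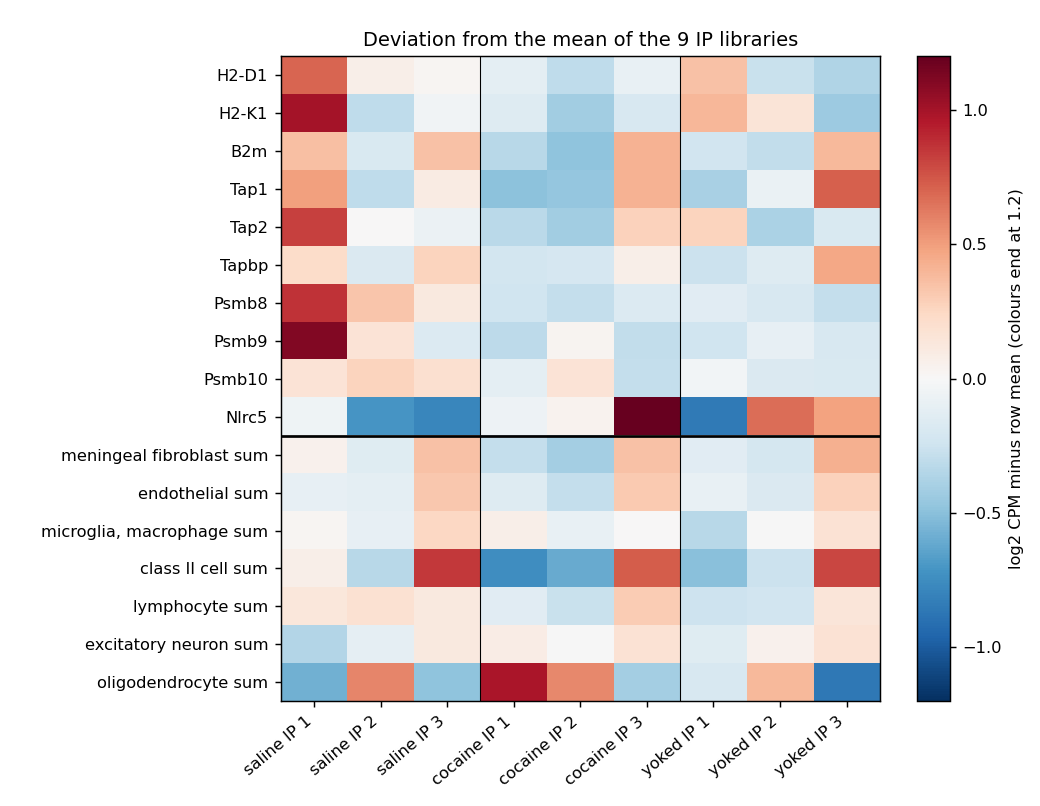
Heat map of log2 CPM minus the row mean over the 9 IP libraries (columns), for the 10 genes above the black line and the summed levels of 7 marker lists below it, with red above and blue below the row mean. Averaged over the 10 genes, saline replicate 1 is the highest column at 0.57 and cocaine replicates 1 and 2 are the lowest at -0.24 and -0.23.

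Within the set the genes followed more than 1 pattern over the 9 IP libraries. Of 45 pairs of genes 36 had a Pearson r above 0, with a median of 0.27 and a range of -0.76 to 0.91, given as a description over libraries that share groups and lanes. B2m, Tap1 and Tapbp went together (r of 0.89 to 0.91). Within the cocaine and yoked groups each was highest in replicate 3. All were also above their mean over the 9 IP libraries in saline replicates 1 and 3. H2-D1 went with H2-K1 (r = 0.87), Tap2 (0.89) and Psmb8 (0.83), and Psmb8 with Psmb9 (0.89), with saline replicate 1 highest in all 5 genes. Tap1 and Psmb9, whose starts lie side by side, had an r of 0.28.

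Replicate 3 of each IP group also had the highest sums of class II, meningeal, endothelial and mural markers in its group. Class II sums, for example, ran from 78.4 to 178 CPM in saline, 58.8 to 163 in cocaine and 69.7 to 172 CPM in yoked IP. Over the 9 libraries the mean of the 10 genes had an r of 0.59 with the lymphocyte sum and 0.50 with the meningeal. The r was 0.48 with the class II, 0.37 with the mural, 0.30 with the endothelial and 0.21 with the microglia and macrophage sum. It was -0.67 with the oligodendrocyte and -0.49 with each of the excitatory neuron and astrocyte sums. These values are a description, and the part of these cell types in the levels was not tested. Without replicate 3 of every group the log2 fold changes of cocaine over saline were -0.91 for Psmb8, -0.85 for Psmb9, -0.90 for Tap2 and -0.68 for Tap1, and that of Nlrc5 was 0.42.

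The other pathway genes gave no call between IP groups. By edgeR 0 of 97 tested passed the adjusted p in each of the 3 comparisons. Of the 12 other heavy chains tested, 11 were below 0 for cocaine against saline (53.1% of all genes), with a median log2 fold change of -0.47, and 8 were below 0 for yoked against saline (51.9% of all genes), with a median of -0.14. Without saline replicate 1 these were 10 (median -0.42) and 7 (median -0.21). H2-Q1 was at 14.3, 19.3 and 54.0 CPM after cocaine and 24.7, 22.3 and 59.3 CPM in the yoked group. In both groups replicate 3 was far above the others.

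The genes most like the mean of the set over the 9 IP libraries were sought among the 10035 other genes whose average log2 CPM was 3 or more. Cd24a, a surface glycoprotein, came first with a Pearson r of 0.98, followed by Pon2 (0.97), a lactonase of intracellular membranes, Rab13 (0.95), a small GTPase, Smim14 (0.94) and Rnf166 (0.94). In all 5, as in the mean of the set, saline replicate 1 was the highest library. They were picked as the most alike of many genes, so the values are a description.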

How the data were processed

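The authors deposited 1 table of raw counts for each library, with reads counted for each gene symbol. Per the submitters' processing notes, STAR 2.0.0e, HTSeq and the mm10 build were used. The version of HTSeq, its strand setting and its annotation: not given in the sources used here. The 6 entries that name no gene (including reads that were not unique) entered neither library sizes nor tests. The 10 genes and all lists were chosen with earlier results of these data known.

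Counts were tested with edgeR 4.0.16 (R 4.3.3, TMM factors, filterByExpr with a minimum count of 10, quasi-likelihood test, Benjamini-Hochberg adjustment over all genes tested, threshold 0.05). One fit of 10 libraries gave saline IP over input, and one of the 9 IP libraries gave the 3 contrasts between groups. Groups and replicate numbers came from the sample titles. The procedure was tested on simulated counts. Alternatives were RLE size factors, DESeq2 1.42.0, no count filter, a replicate block, leaving out each replicate and, added after the data were seen, leaving out replicate 3 of every IP group and another transcript length. Replicate pairs differed beyond counting noise (chi-square per degree of freedom 32.8 to 114), so none was treated as a repeat.

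Named genes were the 10, the 3 constitutive catalytic subunits, up to 4 called genes with the largest fold per pathway list and the 5 most alike genes; Irf1, Cd4, Cd3e and Cd79a were named after their values were seen. Marker lists are given as sums, and their leading genes are not named. The pattern used log2 of CPM plus 0.1. Positions and transcripts came from GENCODE vM21 on GRCm38 and promoters from RefSeq.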

Additional observations from a re-analysis of the deposited data

How the results depend on the processing

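Of the values recomputed under each alternative, 377 of 400 single-gene fold changes moved by less than the spread and 23 by more, and 0 called values reversed. Between IP groups no gene was called, so the count of reversals bears only on saline IP over input. For cocaine against saline 0 of the 10 genes changed sign in 11 alternatives. For yoked against saline H2-K1 changed sign without saline replicate 1, Tap1 in 4 alternatives and Tapbp in 3. Only H2-K1 kept its sign in all 11 alternatives for cocaine against yoked. Other pathway genes called higher than the input were 9, against 16 with DESeq2 and 19 without replicate 3 of every IP group, and those called lower 1 against 2 in the latter; leaving out 1 saline library gave 8 to 10 higher. Over all genes, calls against the input numbered 1047 to 1303 higher and 417 to 772 lower when 1 saline library was left out, with both lowest counts without saline replicate 1, and 1875 higher and 1567 lower without replicate 3 of every IP group. DESeq2 called 2704 genes in all, and RLE size factors 2111. The cause was not tested.

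Leaving out 1 library moved the median log2 fold change of the 10 genes between -0.61 and -0.18 for cocaine against saline, between -0.42 and -0.08 for yoked against saline and between -0.29 and 0.011 for cocaine against yoked. Without replicate 3 of every IP group the median was -0.66 for cocaine and -0.37 for yoked against saline. RLE size factors and DESeq2 shifted the median of all genes by at most 0.012. With merged exons in place of the principal transcript, the log2 ratio in saline IP was -3.64 in place of -2.58 for Psmb8 to Psmb5. For Psmb10 to Psmb7 it was -0.90 in place of -2.08. The counts were the same, and only the lengths that divide them differed.

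Libraries with the same replicate number had correlated deviations of -0.079 to 0.469 and others of -0.498 to 0.416. Of 9 same-number pairs 7 were over 0.1, the replicate 3 pairs were at 0.434 to 0.469, and 6 of 9 libraries correlated best with their own number, a hint of pairing from the data. Since 2 pairs were not over 0.1 and the labels give no pairing, the numbers were not taken to pair the samples. With the replicate block 0 genes were called in any contrast between IP groups, and the medians of the 10 genes were -0.39, -0.29 and -0.05. Depth limits Nlrc5 (6 to 49 counts per library) and Tap2 in the input (10 counts).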

Other observations

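Several class I and lymphocyte genes were seen in a few libraries at low counts and are given here as values, chosen after they were seen. H2-M9, a non-classical heavy chain gene, had 25 counts in saline IP replicate 1 and 0 in each of the other libraries. H2-Q10, a secreted class I gene, had 110, 28 and 2 counts in the saline IP libraries, 19, 41 and 14 in the cocaine, 125, 53 and 0 in the yoked IP libraries and 38 in the input. Ifng, the interferon that induces the immunoproteasome, had 8 and 11 counts in saline IP replicates 2 and 3 and 5 counts in yoked IP replicate 3, and 0 in each of the other libraries, which allows up to 3 counts. Nkg7, a granule protein of natural killer and CD8 T cells, had 9 to 33 counts per IP library and 0 in the input library. Cd8a, a coreceptor for class I, had 44, 16 and 0 counts in saline, 6, 14 and 21 in cocaine and 23, 35 and 20 in yoked IP libraries, and 2 in the input.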
